A study of Mus musculus with 6 samples.

Results

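Large-subunit ribosomal protein mRNAs were examined as 44 Ensembl gene IDs, the cytosolic Rpl and Rplp genes from Rpl3 to Rpl41 and Rplp0 to Rplp2 without pseudogenes. The rule uses gene identity and no measured value. Of the 44 IDs, 39 had a tag in the deposited tables and 37 had at least 1 tag with a poly(A) tail, among 6469 gene IDs with tailed tags in the whole series. The files do not pair IDs with symbols and no table used here does, so single genes are given by ID and their role in the ribosome is not described. A tag is a group of reads taken to come from one RNA 3' end, and it counted as tailed at 5 nt or more.

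The libraries came from naive CD4 T cells sorted as TCRβ+ CD4+ CD25- and CD62L-high CD44-low, and were made by mTAIL-seq, in which a hairpin adaptor is ligated to RNA 3' ends so that the tail is read with the end of its transcript. There were 3 WT libraries, from littermate controls carrying floxed Btg1 and Btg2 alleles, and 3 DKO libraries, from mice with the same alleles and CD4-Cre. CD4-Cre is a transgene that is active in the T cell lineage from the thymus on, and the extent of deletion in these cells was not measured here. The labels mention 2 WT and DKO pairs of animals, and which libraries share mice is not stated, so p-values measure how far libraries differ, and some of that may be technical. The marker genes of T cells and of other cell types, and Btg1 and Btg2 themselves, were not analysed here because no ID could be matched to a symbol.

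The large ribosomal subunit joins amino acids into protein, and each of its proteins is encoded by its own mRNA. Ribosomal protein mRNAs are abundant, stable transcripts with a pyrimidine tract at the 5' end that ties their translation to growth signals, and the acidic proteins encoded by the Rplp genes form the stalk that recruits translation factors. The antiproliferative factors BTG1 and BTG2 recruit the deadenylase complex CCR4-NOT, which shortens poly(A) tails. Naive T cells are quiescent and make ribosomes at a low rate until they are activated.

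The libraries held 3943 to 24024 tailed, gene-linked tags, of which 102 to 762 came from the ribosomal protein IDs. The libraries numbered 3 were the smallest of each genotype. Untailed tags made up 24.2% and 28.0% of all linked tags there, against 5.99% to 8.04% in the other 4. Their mean tail over all tags was also the shortest of each genotype, and every comparison below is therefore read with this pair in view.

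Tags with bases added beyond the tail show what was read, and the following ribosomal protein tags were stored whole in the deposited tables. They were picked to show the forms of addition seen. The tail is in lower case, and capitals mark the bases added at the 3' end, where T stands for U in the RNA.
ENSMUSG00000057841 in WT replicate 3: aaaaaaaaaaaaaaaaaaaaaaaaaT
ENSMUSG00000025508 in DKO replicate 3: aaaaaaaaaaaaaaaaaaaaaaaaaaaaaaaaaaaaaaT
ENSMUSG00000074129 in WT replicate 1: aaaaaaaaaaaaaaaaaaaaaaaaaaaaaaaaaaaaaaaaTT
ENSMUSG00000032399 in DKO replicate 1: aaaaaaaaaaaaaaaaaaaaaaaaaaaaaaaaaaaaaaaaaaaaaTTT
ENSMUSG00000007892 in DKO replicate 2: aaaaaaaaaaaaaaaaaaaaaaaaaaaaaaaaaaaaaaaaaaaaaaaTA
These tails measured 25, 38, 40, 45 and 47 nt. The most common addition was a lone U, as in the first and second of them.

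The tags were spread very unevenly over the 44 IDs. ENSMUSG00000032399 alone gave 618 of the 2638 tailed ribosomal protein tags, or 23.4%, followed by ENSMUSG00000028936 with 365 and ENSMUSG00000057841 with 311. The first 3 IDs together held 49.0% and the first 8, each with at least 100 tags, held 80.6%. A further 14 IDs had 10 to 99 tags, 15 had 1 to 9, and 7 had none. For an ID with none, 0 of 84157 tailed tags allows a share of up to 0.00356%, a limit that covers counting error only. Tag numbers per ID were not corrected for anything that affects capture of a given 3' end, so they are not compared as mRNA levels between genes.

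**Figure D1:**
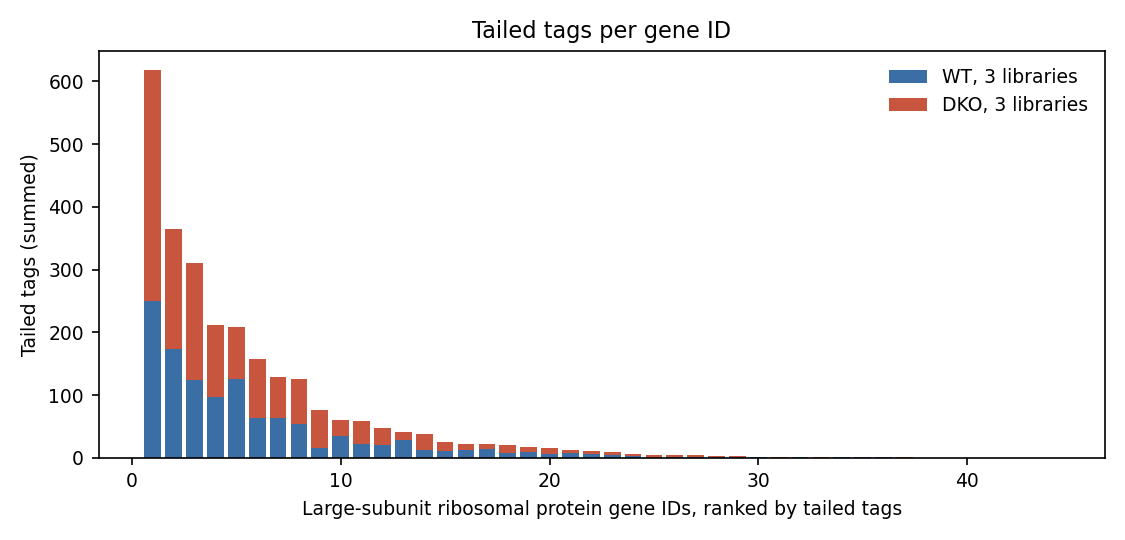
Tailed tags of each of the 44 large-subunit ribosomal protein gene IDs, summed over the 3 WT (blue) and 3 DKO (red) libraries and ranked by their total. The first ID holds 618 tags, 8 IDs hold at least 100, and the last 7 hold none.

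The whole set took a similar share of each library except one. Ribosomal protein tags made up 2.80%, 2.95% and 5.16% of tailed tags in the WT libraries and 2.87%, 3.17% and 2.59% in the DKO libraries. The WT library numbered 3 was the highest, and the genotypes overlapped. The means were 3.64% ± 1.32 (SD, n = 3) in the WT libraries and 2.88% ± 0.293 (SD, n = 3) in DKO, a difference smaller than the spread between the WT libraries. Within numbers 1 and 2 the difference was 0.144 percentage points in the other direction, with DKO the higher.

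The next comparison asked whether tails of these mRNAs were longer without BTG1 and BTG2. Over all ribosomal protein tags the mean tail was 75.5, 71.2 and 54.6 nt in the WT libraries and 70.7, 81.1 and 60.9 nt in the DKO libraries. The shortest means of each genotype came from the libraries numbered 3, and the genotypes overlapped. The group means were 67.1 nt ± 11.04 (SD, n = 3) in the WT libraries and 70.9 nt ± 10.1 (SD, n = 3) in DKO. These lay 3.83 nt apart, less than the spread within either genotype, and the difference turned to -2.43 nt without WT replicate 3 and to -1.28 nt without DKO replicate 2. All other tailed tags gave 64.3 nt ± 14.3 (SD, n = 3) in the WT libraries and 70.7 nt ± 9.07 (SD, n = 3) in DKO, a difference of 6.38 nt that was -1.78 nt without WT replicate 3.

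Medians of the ribosomal protein tags were 62, 59 and 48 nt in the WT libraries and 63, 66 and 54 nt in the DKO libraries. Same-numbered libraries thus differed by 1, 7 and 6 nt, each with DKO the longer, although the groups overlapped. In the 4 libraries numbered 1 and 2 and in DKO replicate 3, the ribosomal protein median lay 2 or 3 nt below that of the other tags, and in WT replicate 3 it lay 3 nt above it. The middle of the distribution therefore followed the library closely, in ribosomal protein tags as in the rest.

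**Figure D2:**
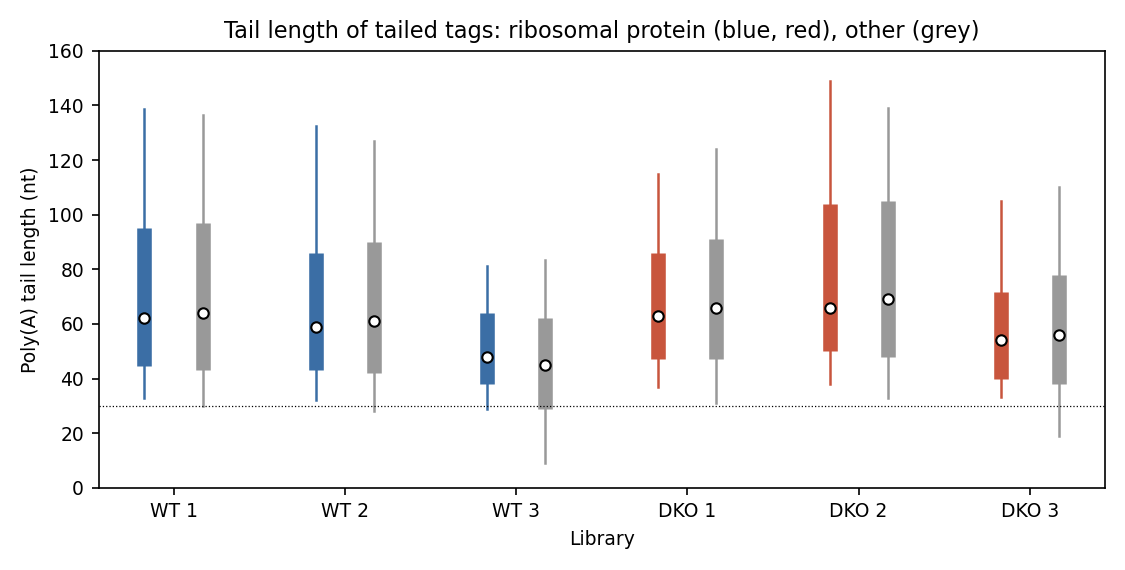
Poly(A) tail length in nt of tailed tags in each library, for ribosomal protein IDs (blue, WT; red, DKO) and all other gene-linked tags (grey). Circles are medians, thick bars run from the 25th to the 75th percentile and thin lines from the 10th to the 90th, and the dotted line marks 30 nt; the 10th percentile of ribosomal protein tails is 29 to 33 nt in the WT libraries and 33.1 to 38 nt in the DKO libraries.

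The genotypes did not overlap in the share of tails under 30 nt, but this depended on the limit chosen. They did not overlap under 20 nt either. Under 40 nt they overlapped, at 19.6%, 20.2% and 30.8% in the WT libraries and 13.3%, 11.4% and 23.5% in the DKO libraries. Tails under 30 nt, about the span covered by a lone poly(A)-binding protein, made up 7.37%, 7.74% and 10.3% of ribosomal protein tags in the WT libraries and 3.37%, 3.67% and 3.92% in the DKO libraries. Every DKO library lay below every WT library, and the DKO values lay close together. In all, 99 of 1181 WT tags and 52 of 1457 DKO tags were this short. The means were 8.46% ± 1.58 (SD, n = 3) in the WT libraries and 3.66% ± 0.275 (SD, n = 3) in DKO, a difference of -4.80 percentage points that exceeded the spread within either genotype. No p is given for this pooled value, because the set was chosen with earlier results of these data known.

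The 95% exact (Clopper-Pearson) intervals show how few tags stand behind each share. They ran from 5.19 to 10.1%, 5.12 to 11.1% and 7.37 to 13.8% in WT, and from 2.07 to 5.16%, 2.46 to 5.27% and 1.08 to 9.74% in the DKO libraries. The interval of DKO replicate 3, with 4 short tags of 102, overlapped those of all WT libraries. That of DKO replicate 2 overlapped WT replicates 1 and 2 at its upper end, and that of DKO replicate 1 overlapped WT replicate 2. Within numbers 1 and 2 the difference was -4.03 percentage points, and leaving out any 1 library gave -5.35 to -3.90.

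The other tailed tags overlapped between the genotypes. Their shares under 30 nt were 9.84%, 10.98% and 26.1% in the WT libraries and 8.87%, 7.93% and 15.8% in the DKO libraries, a mean difference of -4.79 percentage points. Without WT replicate 3 the difference of the other tags was 0.443, with DKO the higher, where that of the ribosomal protein tags was -3.90. Within numbers 1 and 2 it was -2.01 for the other tags and -4.03 for the ribosomal protein tags. Ribosomal protein tags thus had the lower share of short tails in each of the 6 libraries, by the widest margin in the libraries numbered 3. Whether the genotype difference itself was unlike that of the other tags was not tested. Here and in the comparisons below, the other tags were all remaining gene-linked tags, not sorted by kind of RNA. Whether mRNAs of a like kind share these traits was therefore not tested.

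**Figure D3:**
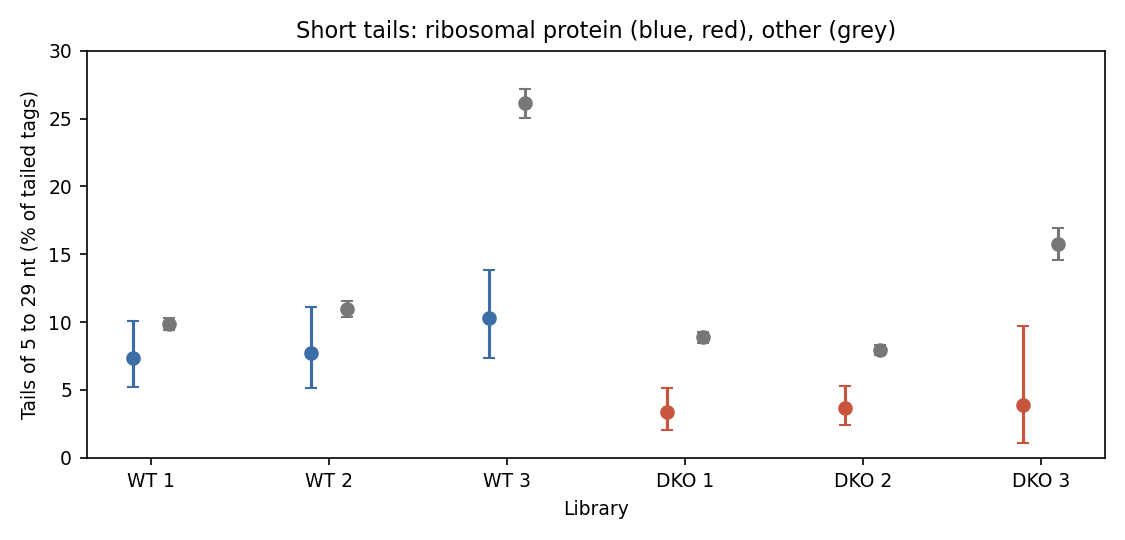
Share of tailed tags with a tail of 5 to 29 nt in each library, with 95% exact intervals for counting error, for ribosomal protein IDs (blue, WT; red, DKO) and other gene-linked tags (grey). Ribosomal protein shares are 7.37% to 10.3% in the WT libraries and 3.37% to 3.92% in the DKO libraries, and lie below the grey points in every library.

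With the tags of the 3 libraries of a genotype pooled, the lower share of short tails was found in most IDs deep enough to look at singly. Among the 11 ribosomal protein IDs with at least 20 tailed tags in each genotype, 10 had a lower share in DKO and 1 had no short tail in either. Of all 175 IDs of that depth in the series, 76.0% had a lower share in DKO, so most IDs outside the set went the same way. The pools weigh the libraries unequally. WT replicate 3 gave 370 of the 1181 WT ribosomal protein tags, and DKO replicate 3 gave 102 of the 1457 DKO tags. How far this shaped the tally was not tested. In ENSMUSG00000060938, 3 of the 4 short WT tails came from WT replicate 3, and the 2 short DKO tails from DKO replicate 2. ENSMUSG00000062006 had 6, 3 and 6 short tails of 28, 21 and 48 tags in WT, and 2, 2 and 1 of 47, 55 and 13 in the DKO libraries. ENSMUSG00000007892 had 7, 2 and 3 of 68, 32 and 26 in WT, and 1, 0 and 0 of 37, 37 and 8 in the DKO libraries. In ENSMUSG00000057841 the shares were nearly equal, at 5.65% in the WT libraries and 5.35% in DKO over the 3 libraries of each. ENSMUSG00000032399, the most-tagged ID, had 13 short tails of 250 in the WT libraries and 8 of 368 in the DKO libraries.

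The remaining classes of tail length overlapped between the genotypes. Tails of 30 to 59 nt were the largest class, at 46.2% ± 9.26 (SD, n = 3) in the WT libraries and 44.0% ± 10.9 (SD, n = 3) in DKO. Tails of 60 to 89 nt made up 25.5%, 26.5% and 23.8% in the WT libraries and 34.7%, 32.0% and 25.5% in the DKO libraries, so that DKO was higher in each same-numbered pair while DKO replicate 3 fell between the WT values. Tails of at least 150 nt made up 8%, 5.65% and 1.08% in the WT libraries and 4.55%, 9.97% and 0% in the DKO libraries, with no common order. The last of these was 0 of 102 tags.

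Single IDs were tested for tail length with limma on log2 mean tail length, over the 44 IDs in the series that reached 10 tailed tags in each of the 6 libraries, 3 of which were ribosomal protein IDs. These just inside the minimum were ENSMUSG00000062006 and ENSMUSG00000032399, with 13 and 14 tags in their smallest library, and just outside it lay ENSMUSG00000007892 and ENSMUSG00000074129, with 8 and 7. None of the 3 passed an adjusted p of 0.05 (limma, Benjamini-Hochberg), against 0% of all 44, where 2 had an unadjusted p under 0.05. With the replicate number as a block the count was again 0 of 3, against 0% of 44. All 3 had a log2 change above 0 in the DKO libraries, as did 93.2% of the 44, with a median of 0.08 for the 3 and 0.10 for the 44. Without WT replicate 3 this held for 1 of 3 and for 18 of the 46 IDs then tested.

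ENSMUSG00000032399 had mean tails of 81.6, 77.7 and 62.8 nt in the WT libraries and 78.7, 92.4 and 64.6 nt in the DKO libraries. The genotypes interleaved, with the libraries numbered 3 the lowest of each. The log2 change was 0.08 (SE 0.18, limma adjusted p = 0.86). ENSMUSG00000057841 had means of 76.4, 89.1 and 54.1 nt in the WT libraries and 72.0, 84.5 and 68.8 nt in the DKO libraries. Here DKO was the shorter in numbers 1 and 2 and the longer in number 3, and the log2 change was 0.06 (SE 0.20, limma adjusted p = 0.86). ENSMUSG00000062006 had means of 84.0, 66.2 and 54.5 nt in the WT libraries and 79.1, 100.9 and 68.3 nt in the DKO libraries. Its log2 change of 0.28 (SE 0.21, limma adjusted p = 0.86) had the highest single value in DKO replicate 2, whose mean rested on 55 tags with a standard error of 8.5 nt. In none of the 3 did every DKO library exceed every WT library, which 6.82% of the 44 IDs did.

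**Figure D4:**
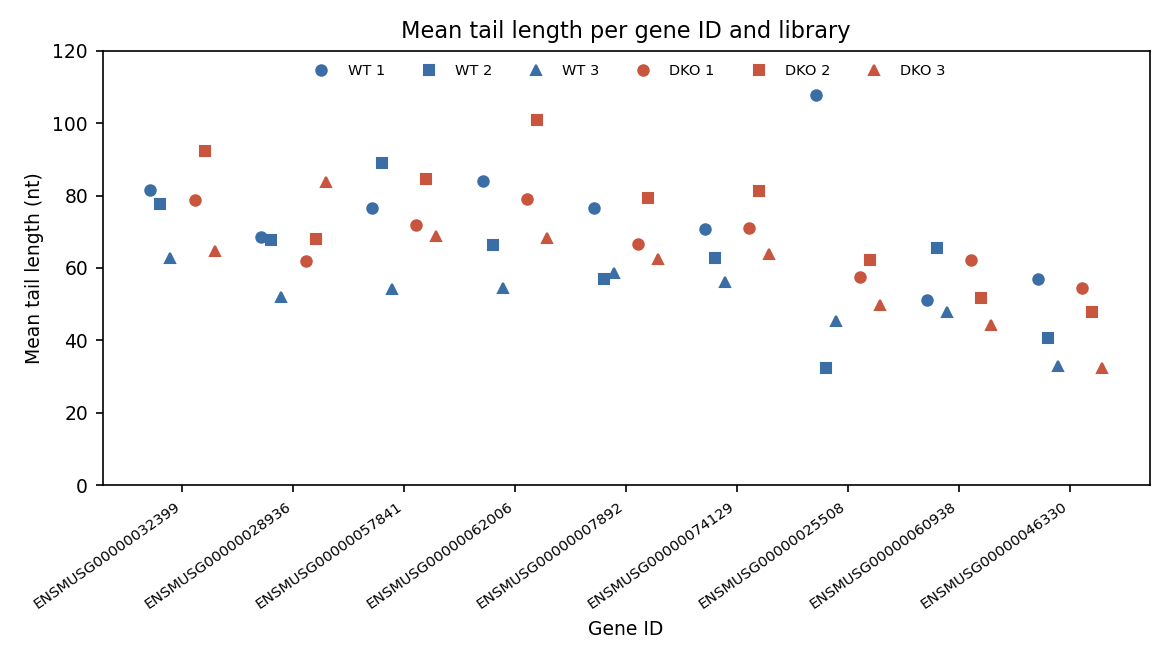
Mean tail length in nt of 9 ribosomal protein gene IDs in each library (circles, squares and triangles for replicates 1, 2 and 3; blue, WT; red, DKO), ordered by tailed tags from left to right. The genotypes overlap in every ID shown, and ENSMUSG00000046330 at the right lies between 32.3 and 56.8 nt in all 6 libraries.

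Some IDs kept to one side of their library's mean tail. Of the 17 IDs with tags in every library, 2 lay above the mean of all tailed tags in 6 of 6 libraries, and 2 lay below it in 6 of 6. Across the 442 IDs of the series with tags in every library, 14.9% were above in 6 of 6 and 9.5% below, so these counts are near what the series shows. Averaged over libraries, the median difference from the library mean was 3.48 nt for the 442 IDs and -0.904 nt for the 17. Of the 17, 6 averaged above 0 and 11 below, while 60.2% of the other IDs averaged above 0. Many of the 17 had few tags, down to 1 in their smallest library. The 3 with at least 10 tags in every library averaged 8.71, 7.94 and 6.57 nt above the library mean. Those with 8 and 7 in their smallest library averaged -0.904 and 0.052 nt. ENSMUSG00000032399 exceeded its library's mean by 6.89, 7.37 and 14.5 nt in the WT libraries and by 6.39, 13.4 and 3.64 nt in the DKO libraries, an average of 8.71 nt ± 4.30 (SD, n = 6 libraries). The other ID above in every library was ENSMUSG00000038900, singled out after its values were seen, at 12.5 nt ± 11.2 (SD, n = 6 libraries) on 25 tags in all.

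Among the 17 IDs tagged in every library, the one farthest below the library means was ENSMUSG00000046330, whose means were 56.8, 40.7 and 32.9 nt in the WT libraries and 54.3, 47.8 and 32.3 nt in the DKO libraries. Relative to its library's mean it lay at -31.2 to -15.4 nt, on 3 to 11 tags per library, and its group means were 43.5 nt ± 12.2 (SD, n = 3) and 44.8 nt ± 11.3 (SD, n = 3). ENSMUSG00000060938 was also below in every library, at -13.8 nt ± 10.6 (SD, n = 6 libraries) on average and at -0.43 nt in WT replicate 3. The highest average, 17.8 nt with an SD of 20.4 nt, belonged to an ID with 17 tags that lay above in 5 of 6 libraries. In the order of averages, neighbours differed by less than the larger of their SDs over libraries. Whether IDs farther apart in this order differ was not tested. ENSMUSG00000028936 averaged -0.66 nt relative to the library mean with an SD of 12.7 nt, and ENSMUSG00000074129 averaged 0.052 nt with an SD of 5.50 nt.

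The next comparison asked which of these mRNAs were more or less often tagged. By the quasi-likelihood test of edgeR, 12 ribosomal protein IDs were among the 170 tested, and none had an adjusted p under 0.05, as for 0% of the 170. At an unadjusted p under 0.05 there were 2 of 12, against 7.65% of the 170. The median log2 change was -0.35 for the 12, with 2 higher and 10 lower, and -0.05 for the 170, of which 45.9% were higher. Scaled by library totals alone the median was -0.05 for the 12, with 6 higher and 6 lower, and 0.24 for the 170. This tally changed without the libraries numbered 3. With numbers 1 and 2 only, 8 of 14 tested ribosomal protein IDs were higher and the median was 0.08, and without WT replicate 3 alone 6 of 13 were higher with a median of -0.13. The scaling moved the median of the whole table, so changes are read relative to it. In a bulk sample, fewer transcripts per cell and fewer cells carrying them cannot be told apart.

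With the replicate number as a block, 1.76% of the 170 changed in either direction, and 1 of the 12 rose in DKO. It was the only ID of the 170 to rise, or 0.588%, so this share is no separate background. The ID called was ENSMUSG00000025508. It had 3, 3 and 10 tailed tags in the WT libraries and 23, 21 and 16 in the DKO libraries. Per 10000 tailed tags of the library these were 1.77, 2.63 and 13.9 in the WT libraries and 11.1, 8.74 and 40.6 in the DKO libraries. DKO was the higher in each same-numbered pair, but WT replicate 3 lay above DKO replicates 1 and 2, so that the groups overlapped. The log2 change was 1.86 (SE 0.51, edgeR adjusted p = 0.018) with the block and 1.65 (SE 0.79, edgeR adjusted p = 0.46) without it. The block treats the numbers as 3 pairs, while the libraries themselves separated number 3 from 1 and 2 and did not tell 1 from 2. In fits with no block, the log2 change was 2.55 without WT replicate 3 (edgeR adjusted p = 0.022) and 0.85 without DKO replicate 3 (edgeR adjusted p = 0.545). Its mean tails were 57.4, 62.1 and 49.7 nt in the DKO libraries on 23, 21 and 16 tags, while the WT means of 107.7, 32.3 and 45.2 nt rested on 3, 3 and 10.

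ENSMUSG00000007892 had the opposite order. Its tailed tags numbered 68, 32 and 26 in the WT libraries and 37, 37 and 8 in the DKO libraries, or 40.1, 28.1 and 36.2 per 10000 in the WT libraries and 17.9, 15.4 and 20.3 in the DKO libraries. Every DKO library lay below every WT library, with means of 34.8 ± 6.13 (SD, n = 3) and 17.9 ± 2.44 (SD, n = 3) per 10000. It was the 1 ribosomal protein ID of 12 with no overlap downward after scaling, against 7.65% of the 170, and 0 of 12 had none upward, against 8.82%. The log2 change was -1.06 (SE 0.44, edgeR adjusted p = 0.46) and did not pass with the block either (-1.03, edgeR adjusted p = 0.28).

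ENSMUSG00000046330, whose tails lay below every library mean, had 11, 9 and 8 tags in the WT libraries and 6, 4 and 3 in the DKO libraries. That is 6.49, 7.90 and 11.1 per 10000 in the WT libraries and 2.90, 1.67 and 7.61 in the DKO libraries, where DKO replicate 3 lay above WT replicate 1. The log2 change was -1.56 (SE 0.60, edgeR adjusted p = 0.46). Within numbers 1 and 2 alone edgeR called 12.4% of 241 IDs, and 3 of the 14 ribosomal protein IDs tested there. The 3 were ENSMUSG00000025508 (log2 2.01, edgeR adjusted p = 0.0066), ENSMUSG00000007892 (log2 -1.23, edgeR adjusted p = 0.0041) and ENSMUSG00000046330 (log2 -1.80, edgeR adjusted p = 0.023).

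**Figure D5:**
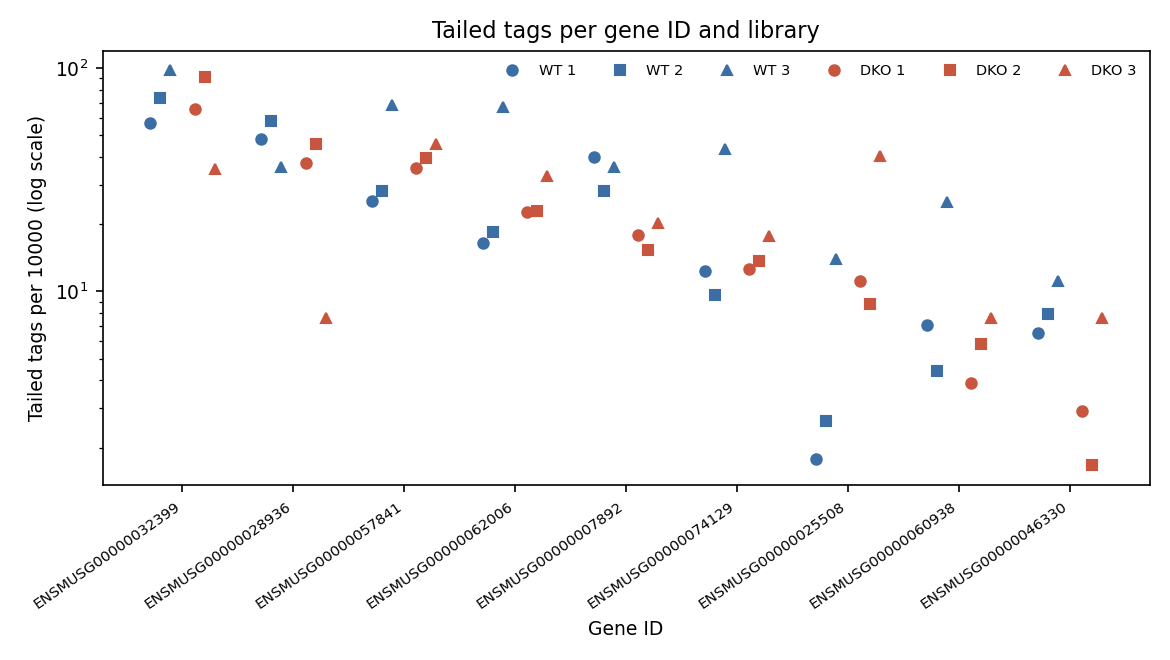
Tailed tags per 10000 tailed, gene-linked tags (log scale) of 9 ribosomal protein gene IDs in each library (circles, squares and triangles for replicates 1, 2 and 3; blue, WT; red, DKO), in the same order as the plot of mean tails. The genotypes do not overlap in ENSMUSG00000007892 alone of the 9, at 28.1 to 40.1 in the WT libraries and 15.4 to 20.3 in the DKO libraries.

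The orders varied among the other much-tagged IDs. ENSMUSG00000032399 had 56.6, 73.8 and 97.5 tags per 10000 in the WT libraries and 65.8, 90.7 and 35.5 in the DKO libraries. DKO was the higher in numbers 1 and 2 and the lower in number 3. ENSMUSG00000028936 had 48.4, 58.0 and 36.2 in the WT libraries and 37.7, 45.8 and 7.61 in the DKO libraries, lower in DKO in each same-numbered pair with overlapping groups (log2 -0.61, SE 0.48, edgeR adjusted p = 0.65). In ENSMUSG00000057841, ENSMUSG00000062006, ENSMUSG00000074129 and ENSMUSG00000060938 WT replicate 3 was the highest of all 6 libraries, at 68.3, 66.9, 43.2 and 25.1 per 10000. The same library held the highest share of ribosomal protein tags as a whole, and log2 changes of 3 of these 4 IDs changed sign without it.

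The last comparison concerned uridine added to the 3' end, a mark that is placed on short tails and precedes decay. A U was present anywhere among the added bases on 51 of the 2638 tailed ribosomal protein tags, in 14 IDs. It was the last base in 44 of the 51 tags. By library the shares were 2.11%, 2.08% and 1.35% in the WT libraries and 1.85%, 1.57% and 5.88% in the DKO libraries. The highest value was DKO replicate 3, with 6 of 102 tags and a 95% exact interval of 2.19 to 12.4%. The means of 1.85% ± 0.429 (SD, n = 3) in the WT libraries and 3.10% ± 2.41 (SD, n = 3) in DKO differed by less than the DKO spread. The other tags carried a U on 2.90% ± 0.724 (SD, n = 3) in the WT libraries and 2.46% ± 0.173 (SD, n = 3) in DKO, a difference of -0.434 percentage points, and over all 6 libraries on 2.53% against 1.93% of ribosomal protein tags. For the ribosomal protein tags within numbers 1 and 2 the difference was -0.379 percentage points. With U as the last base, their shares were 1.89%, 2.08% and 1.35% in the WT libraries and 1.52%, 1.44% and 2.94% in DKO. The difference between the genotypes was then 0.191 percentage points, against 1.26 for a U anywhere among the added bases. ENSMUSG00000032399 carried 19 of the 51, or 3.07% of its own tags.

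Uridine on ribosomal protein tags was about as frequent on short tails as on longer ones, though few tags had a short tail. Among tails under 30 nt it was present on 3 of 151 tags, or 1.99% (95% exact interval 0.412 to 5.70%), against 841 of 8843, or 9.51% (8.91 to 10.1%), of the other tags. Short ribosomal protein tails were mostly near the limit, with 125 of 151 at 20 to 29 nt. Within 20 to 29 nt the shares were 2.40% (0.498 to 6.85%) and 5.31% (4.66 to 6.02%), whose intervals overlapped. Under 20 nt there were 0 of 26 ribosomal protein tags, with an upper bound of 13.2%, and 13.5% of other tags. On tails of 30 nt and above the shares were 1.93% (1.43 to 2.55%) and 1.68% (1.59 to 1.78%), so that the gap was seen on short tails and its size there rests on 3 tags. These tags were pooled over the 6 libraries, so the intervals cover counting error only and not the spread between libraries. By library, the share on ribosomal protein tails under 30 nt ran from 0% to 25%, the highest being 1 of 4 tags in DKO replicate 3.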

How the data were processed

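The authors deposited, per library, tables of all tags, mapped tags, tag-to-gene links and per-gene values. Reads per tag, gene IDs per tag and tags per gene ID are whole-number counts in the deposited tables, and tail length is given in nt, up to 231. The submitters' processing notes name GSNAP, bedtools, mm10 and GRCm38, and how tails were called is not stated there. Links were joined to the mapped tags, and recomputed tag counts equalled the deposited ones for 99.97% to 100% of gene IDs.

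A tag counted under each gene ID it was linked to. Log2 mean tail length was tested with limma 3.58.1 (at least 10 tailed tags in every library), and tag counts with the quasi-likelihood test of edgeR 4.0.16 (filterByExpr, TMM), over all gene IDs, with Benjamini-Hochberg adjustment at 0.05. The SE given with edgeR is the absolute log2 change divided by the square root of the F statistic, and edgeR does not report it. Other software was DESeq2 1.42.0 (R 4.3.3) and SciPy 1.17.1 with pandas 2.3.3 (Python 3.11.15). Both fits were also run on simulated data. Those data held no shift particular to the libraries numbered 3, so they do not show how the fits behave on these libraries. Same-numbered libraries deviated together from their group means (r = 0.25, 0.40 and 0.52 for tail length over 44 IDs and 0.14, 0.21 and 0.38 for tag counts over 170 IDs). Numbers 1 and 2 correlated about as much across numbers (0.33 and 0.11 for tail length, 0.29 and 0.38 for tag counts), so the data set number 3 apart but do not separate 1 from 2. The block used the numbers in the library titles, which are not stated to be pairs. The correlations do not show numbers 1 and 2 to be separate pairs. Blocked values therefore stand beside the results they change. No pair of libraries agreed within sampling noise.

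Members and lists were chosen with earlier results of these data known. The rule named 9 members: those tested for tail length, those past 0.05 with or without the block, the 8 with the smallest edgeR p and the 5 with most tags. It was to use symbols, but no ID could be paired with one, so IDs are given instead. Lists of small-subunit proteins, translation factors and cell type markers were not used, for want of symbols. Intervals cover counting error only, and they are too narrow where PCR copies pass as separate molecules. Alternatives were another tag minimum, geometric mean or median, single-ID tags, other scaling and filters, and libraries left out; those of the other tags were chosen after seeing the data.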

Additional observations from a re-analysis of the deposited data

How the results depend on the processing

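The lower share of ribosomal protein tails under 30 nt in DKO kept its direction under every alternative run. The difference was -5.35 to -3.90 percentage points without 1 library. It was -0.996 for tails under 20 nt and -7.45 under 40 nt, where the share itself differs by construction. The genotypes overlapped under 40 nt and not under 20 nt. Without the most-tagged ID, an alternative chosen after seeing the data, the difference under 30 nt was -5.17. For the other tags, also added later, the range without 1 library was -7.70 to 0.443 for short tails, -1.78 to 11.6 nt for mean tail length and -0.666 to -0.0171 for added U, with the values that changed sign coming without WT replicate 3. The difference in mean tail length was -2.43 to 8.82 nt without 1 library, below 0 without WT replicate 3 or DKO replicate 2. The median log2 change in tail length of the tested IDs was -0.035 to 0.22 without 1 library, below 0 for the same 2 libraries, and -0.078 after library centring, which by construction takes out any shift common to a library. Centring also gave -0.078 for ENSMUSG00000032399 and -0.095 for ENSMUSG00000057841, which without 1 library ranged over -0.046 to 0.21 and -0.14 to 0.22. With a minimum of 20 tags no ribosomal protein ID was left. The limma count was 0 in every alternative, the replicate block included, while the edgeR count was 0 to 8 without 1 library (8 without WT replicate 3) and 3 with the replicate block. The block changed no other call.

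With numbers 1 and 2 only, edgeR called 30 IDs, the median log2 change in tag count was 0.082, the difference in the share of tags was 0.144 and that in added U -0.379 percentage points, and the tail change of ENSMUSG00000057841 was -0.081; the cause was not tested. Tag count changes there were 0.11 for ENSMUSG00000032399, 0.33 for ENSMUSG00000057841, 0.22 for ENSMUSG00000062006 and 0.059 for ENSMUSG00000074129. ENSMUSG00000057841 also turned with library totals (0.24), no filter (0.060) and the replicate block (0.13), and ENSMUSG00000032399 with library totals (0.033). Without 1 library the ranges were -0.35 to 0.39 for ENSMUSG00000057841, -0.81 to 0.34 for ENSMUSG00000062006, -1.05 to 0.13 for ENSMUSG00000074129 and -0.132 to 2.02 percentage points for added U, with -0.132 without DKO replicate 3. Depth limits the tail length test to 3 of the 44 ribosomal protein IDs.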

Other observations

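Ribosomal protein IDs held few tags without a tail. In all, 37 of their 2675 linked tags were under 5 nt, with shares of 0.628%, 0.885% and 5.13% in the WT libraries and 1.002%, 0.392% and 1.92% in the DKO libraries. The other linked tags were untailed in 7.45%, 8.25% and 28.9% of cases in WT and in 7.18%, 6.17% and 24.6% in DKO. Of the 37 untailed tags, 18 were also linked to another gene ID, although only 20 of all 2675 ribosomal protein tags were. ENSMUSG00000057841 held 11 of the untailed tags, 9 of them linked to another ID as well, and ENSMUSG00000058558, chosen after its values were seen, held 4, all of them so linked, and had no tailed tag. The identity of the overlapping IDs was not analysed here.

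Other bases were rarely added. A G was present on 1, 0 and 0 ribosomal protein tags of the WT libraries and on 0, 2 and 0 of the DKO libraries; for C the numbers were 1, 2 and 1 against 1, 1 and 1. Reads per tag were 1.72 to 3.25 in ribosomal protein tags and 1.67 to 3.10 in the others, and followed the library.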
